A study of Arabidopsis thaliana with 141 samples.

Results

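The response of wild-type (WT) Arabidopsis thaliana seedlings to hydrogen peroxide was read from 6 RNA-seq libraries of the 141 in the series, 3 of seedlings given H2O2 and 3 of their controls, chosen by sample title, with all genes considered. WT seedlings were grown in liquid 0.5X Murashige and Skoog medium with sucrose and were 7 days old. They received 10 uM 3MBiP, an inhibitor used in many but not all libraries of the series, as a pretreatment of 15 min. The H2O2 group then received 10 mM H2O2 for 1 h. The control group received 3MBiP alone, and the labels do not give the time it was kept afterwards. Each RNA came from 8 pooled seedlings, so a value is a mean over whole plants of mixed cell types, in which fewer cells of a type and less RNA per cell cannot be told apart. The labels call the 3 libraries of a group replicates and do not say whether they came from separate cultures, so p-values measure the spread between these libraries, which may be technical. Because both groups carry 3MBiP, no result here describes H2O2 without it.

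Hydrogen peroxide is the longest-lived of the common reactive oxygen species and is removed in plant cells by catalases, ascorbate peroxidases and thiol peroxidases, which draw on ascorbate, glutathione and thioredoxin. It also acts as a signal. Oxidised cysteines change the activity of sensor proteins, among them class A heat shock factors, and MAP kinases, zinc finger, WRKY and NAC transcription factors act downstream, while TGA factors drive genes that detoxify oxidised lipids and foreign compounds.

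Counts assigned to genes were 28.7, 33.2 and 34.1 M in the H2O2 libraries and 34.1, 33.9 and 40.4 M in the controls. Levels below are in CPM, counts scaled to the size of the library after TMM normalisation. Changes are log2 fold changes of H2O2 over control, from edgeR's quasi-likelihood test of 3 libraries against 3. The ± beside them is an approximate standard error, the size of the change divided by the square root of the test's F statistic. It is not estimated by the fit itself and is rough for genes with few counts. That of a difference between responses need not follow from those of its parts. The fit took the spread from all 12 libraries of the set. Besides the WT libraries these are of the genotypes labelled impk36 and impk4, given 3MBiP and H2O2 in the same way. They entered the fit but neither side of the comparison. With the 6 WT libraries alone, 7793 genes were called against 8601. A gene is said to rise or fall where the adjusted p was under 0.05. Of 21543 genes tested, 21.1% rose and 18.9% fell, and the median over all of them was -0.02. The rises were larger than the falls: 372 genes rose by at least 3 on the log2 scale (1.73%) and 4 fell by as much (0.0186%). The direction of small changes depended on the scaling. With library size alone in place of TMM, 3644 genes rose and 7121 fell, against 4536 and 4065, and the median moved to -0.12. Among organ markers, the floral gene AP3 and the seed genes CRA1, OLEO1 and SESA1 were too low to test. SEP3, another floral organ gene, was not: it stood at 42.6 ± 11.9 CPM with H2O2 and 48.4 ± 6.00 CPM in controls (SD, n = 3 each). None of the 4 shoot markers was called, and 3 of 5 root markers fell, led by COBL9 of root hairs (-0.86 ± 0.12).

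Control replicate 3 stood apart from the other controls. Between pairs of libraries, the chi-square of the counts per degree of freedom was 5.26 to 6.90 among the H2O2 libraries and 4.40 between controls 1 and 2, but 17.1 and 14.4 between control 3 and each of those. Without control 3, 8804 genes were called against 8601. Where leaving it out moved a named gene or a list count by over 1.5 times, the value without it is given.

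By list median, small heat shock genes changed more than any other list examined. All the lists were chosen with earlier results of these data known. Small heat shock proteins are chaperones that hold unfolding proteins in soluble form, and are nearly silent in unstressed seedlings. Of their 17 genes 15 rose and 0 fell, with a median of 6.40, and the 6 libraries of those 15 did not overlap (over all genes tested 24.5% were higher without overlap and 25.2% lower). HSP17.6A (AT5G12030, chromosome 5, 3883957 to 3884838 in TAIR10.1) had 153, 188 and 144 CPM with H2O2, against 0.0554, 0.0562 and 0.0477 CPM in controls. The groups lay far apart, a change of 11.48 ± 0.22. Its neighbour HSP17.6II (AT5G12020, 3882231 to 3883111) had 133, 150 and 125 CPM with H2O2, against 0.083, 0.14 and 0.119 CPM in controls (10.17 ± 0.16). AT1G53540, annotated as an HSP20-like chaperone, had 100, 117 and 102 CPM with H2O2, against 0.111, 0.253 and 0.0955 CPM in controls (9.44 ± 0.14). In AT1G07400, of the same annotation, the values were 160, 178 and 156 CPM with H2O2, against 1.41, 1.4 and 1.29 CPM (6.91 ± 0.09).

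For 3 members the controls held so few reads that the ratio of counts, with its exact 95% counting interval, replaces a fold change. The counts were scaled by library size after TMM normalisation, and intervals cover counting error of the controls only. HSP22.0 (AT4G10250), a chaperone of the endoplasmic reticulum, had 2805 counts with H2O2 and 2 in controls, a ratio of 1679 (465 to 13862). HSP21 (AT4G27670), the plastid member, had 968 counts and 1, a ratio of 1160 (208 to 45807). HSP17.4 (AT3G46230) had 1480 counts and 2, a ratio of 890 (246 to 7345). Not every member moved. AT4G21870 had mean levels of 47.8 CPM with H2O2 and 48.6 CPM in controls (-0.02 ± 0.09), and AT5G47600 was low in both groups (0.08 ± 0.28). Together the 17 genes took 0.126 ± 0.0113% of assigned counts with H2O2 and 0.00779 ± 0.00106% in controls (SD, n = 3 each), a ratio of 16.2, with an exact two-sided permutation p = 0.1, the smallest that 3 libraries against 3 allow. Genes of this family and of the HSP70 and HSP90 families are similar in sequence, so reads may have been divided between them, and the reads that aligned to more than 1 place (7.45 to 10.8% per library) were not counted.

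**Figure D1:**
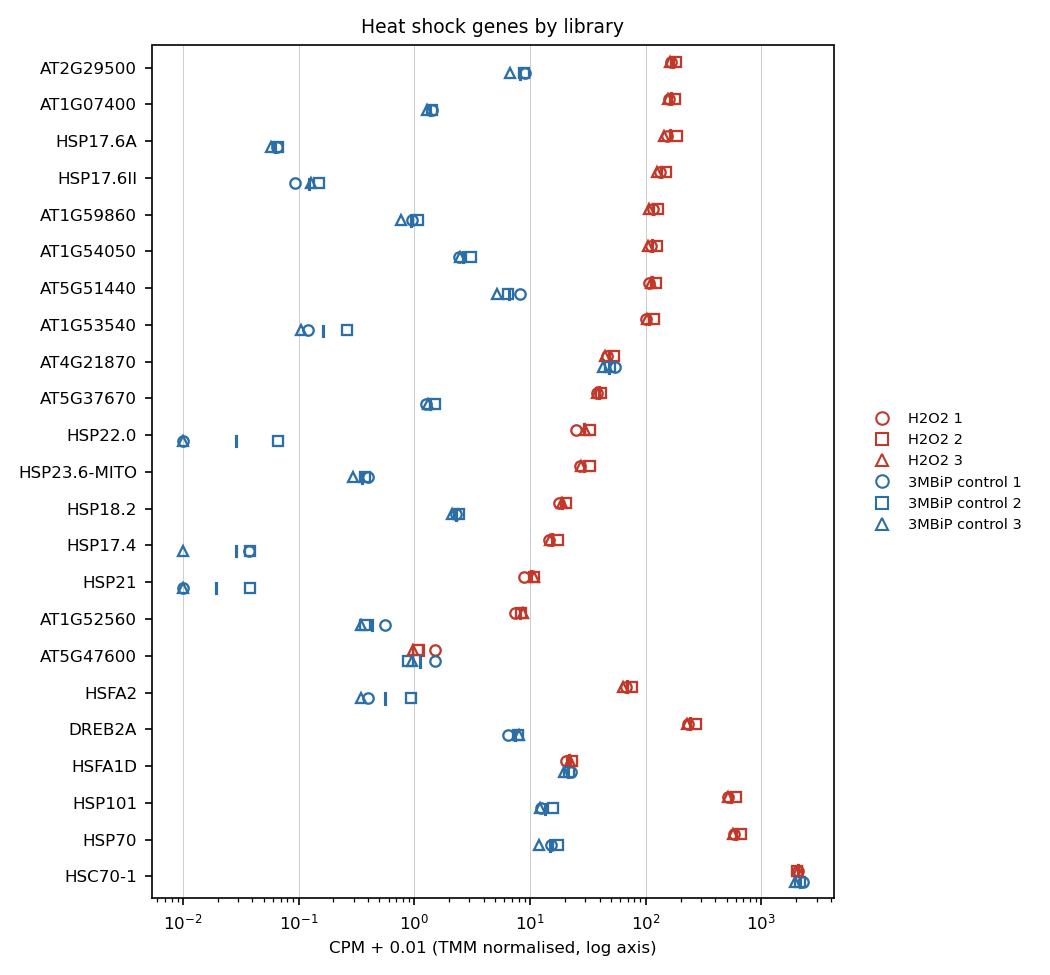
Level of each small heat shock gene and of 6 other heat shock genes in every library, as CPM + 0.01 on a log axis; symbols are libraries and short vertical lines are group means of H2O2 (red) and 3MBiP controls (blue). HSP17.6A sits at 144 to 188 CPM with H2O2, against 0.0477 to 0.0562 CPM in controls, while AT4G21870, AT5G47600, HSFA1D and HSC70-1 overlap.

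Heat shock factors are the transcription factors that drive these genes. Class A1 members are present before stress, and HSFA2 is the factor induced by stress that keeps the response going. Of 22 tested, factors and partners together, 16 rose and 1 fell, with a median of 1.3. HSFA2 (AT2G26150) had 67.7, 76.6 and 63.5 CPM with H2O2, against 0.387, 0.927 and 0.334 CPM in controls (7.00 ± 0.17). Every H2O2 library was above every control. The A1 factors stayed close to their controls: HSFA1A was higher by 0.32 ± 0.11 (adjusted p = 0.025 in edgeR), and HSFA1B (0.15 ± 0.07), HSFA1D (0.05 ± 0.07) and HSFA1E (0.15 ± 0.09) were not called. DREB2A (AT5G05410), a factor of the heat and drought responses that activates HSFA3, had 231, 271 and 227 CPM with H2O2, against 6.45, 7.92 and 8.00 CPM in controls (5.02 ± 0.10). HSFA7B (4.76 ± 0.36), the coactivator MBF1C (4.5 ± 0.12), HSFB2A (3.13 ± 0.09), DREB2C (3.1 ± 0.10), HSFA4A (2.87 ± 0.12), HSFB1 (1.80 ± 0.06) and HSFA3 (1.19 ± 0.11) rose as well. HSFB4, known for its part in root stem cell divisions, fell by 0.86.

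Larger chaperones divided into stress-inducible and constitutive members of the same families. Of 28 tested, 20 rose and 1 fell, with a median of 0.78. HSP101 (AT1G74310), the disaggregase needed for acquired heat tolerance, had 512, 607 and 518 CPM with H2O2, against 12.4, 15.9 and 12.3 CPM in controls (5.33 ± 0.10). The cytosolic HSP70 (AT3G12580) had 585, 668 and 566 CPM with H2O2, against 15.1, 17.3 and 11.9 CPM (5.36 ± 0.12). Its constitutive relative HSC70-1 (AT5G02500) had 2086, 2043 and 2054 CPM with H2O2, against 2272, 2173 and 1960 CPM, and the groups overlapped (-0.05 ± 0.06). The same contrast appeared among the HSP90 genes, where HSP90.1 rose by 5.12 ± 0.14, HSP90.2 by 0.71 ± 0.08, HSP90.3 was not called (0.24 ± 0.10), and HSP90.4 fell by 0.31. HSP70B (5.74 ± 0.11), the cochaperones BAG6 (4.45 ± 0.10), HOP3 (4.01 ± 0.08) and FES1A (3.59 ± 0.09), the immunophilin ROF2 (3.51 ± 0.07) and the heat memory protein HSA32 (2.86 ± 0.12) were among the other genes that rose. The organellar disaggregases CLPB4 of mitochondria (1.74 ± 0.10) and CLPB3 of plastids (0.92 ± 0.06) rose less, and the plastid and mitochondrial HSP90.5 (-0.02 ± 0.06) and HSP90.6 (0.00 ± 0.06) were not called.

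Heat shock factors bind repeats of the pentamer NGAAN in alternating orientation. The 250 bases before each annotated gene start (TAIR10.1, from RefSeq) were searched on both strands for 3 such units in a row, beginning with either GAA or TTC. This element was found in 2 of 17 small heat shock genes (11.8%), in 4 of 26 heat shock factors and partners and in 0 of 28 chaperones, against 106 of 27443 protein-coding genes (0.386%), 0.789% of genes that rose and 0.254% of genes that fell. All 6 belonged to members that rose: HSP17.4, AT1G53540, HSFA2, HSFA7A, HSFA7B and DREB2A. With 1 mismatch allowed, 7 of 17, 4 of 26 and 6 of 28 held the element, against 8.40% of protein-coding genes. Most members that rose held neither form in this window. A match is a description of letters and not a binding site. The promoters of 4 of the 6 genes are shown, since these genes carry the response described above, with the matched letters in capitals, 5′ to 3′ toward the gene: HSP17.4 from chr3:16984868-16985117 on the minus strand, AT1G53540 from chr1:19980049-19980298, HSFA2 from chr2:11135374-11135623 and DREB2A from chr5:1601955-1602204, these 3 on the plus strand.
HSP17.4: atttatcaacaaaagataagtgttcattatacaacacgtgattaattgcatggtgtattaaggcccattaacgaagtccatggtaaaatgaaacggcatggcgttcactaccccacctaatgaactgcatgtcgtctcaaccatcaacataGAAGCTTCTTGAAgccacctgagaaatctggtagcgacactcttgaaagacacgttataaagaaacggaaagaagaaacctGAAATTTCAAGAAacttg
AT1G53540: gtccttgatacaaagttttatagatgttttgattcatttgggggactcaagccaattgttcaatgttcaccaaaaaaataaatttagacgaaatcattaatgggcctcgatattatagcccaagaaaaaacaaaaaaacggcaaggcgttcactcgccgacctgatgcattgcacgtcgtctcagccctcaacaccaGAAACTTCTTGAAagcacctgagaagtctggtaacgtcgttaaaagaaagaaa
HSFA2: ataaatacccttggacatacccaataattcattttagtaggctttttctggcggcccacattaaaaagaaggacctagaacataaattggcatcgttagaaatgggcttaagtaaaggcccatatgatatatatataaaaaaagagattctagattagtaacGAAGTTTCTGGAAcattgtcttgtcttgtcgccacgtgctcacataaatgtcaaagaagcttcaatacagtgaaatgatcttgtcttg
DREB2A: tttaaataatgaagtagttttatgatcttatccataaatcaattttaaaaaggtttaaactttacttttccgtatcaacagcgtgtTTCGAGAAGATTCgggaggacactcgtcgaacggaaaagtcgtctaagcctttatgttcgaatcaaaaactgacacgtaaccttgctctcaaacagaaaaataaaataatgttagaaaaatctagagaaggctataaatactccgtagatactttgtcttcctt
HSP17.4 held 2 matches, the nearer starting 18 bases before the gene start, and the nearest matches lay 53 bases before AT1G53540, 88 before HSFA2 and 164 before DREB2A. The last is the reverse arrangement, with TTC first.

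Genes of the endoplasmic reticulum were listed apart from HSP22.0. Of 22 tested genes of folding and the unfolded protein response, 8 rose and 4 fell, with a median of -0.03. ERDJ3A (AT3G08970), a J-domain cochaperone, had 46.4, 54.1 and 45.8 CPM with H2O2, against 3.52, 2.64 and 2.82 CPM in controls (4.03 ± 0.11). The membrane-bound factors BZIP60 (1.68 ± 0.10), NAC062 (1.65 ± 0.07) and BZIP28 (0.73 ± 0.06) rose, as did BIP3 (1.54 ± 0.39), the stress-inducible member of the BIP family. The abundant lumenal proteins stood at or below their controls: the lectin chaperone CNX1 fell by 0.22, the chaperone BIP1 by 0.16 and the disulphide isomerases PDIL1-2 and PDIL2-1 by 0.17 and 0.14. These falls depended on the settings: 10 of the 22 fell with library size alone, 7 without control 3 or H2O2 replicate 3, 2 with RLE factors, 1 without control 2 or either of the other H2O2 libraries, and 0 without control 1. The calls of BIP1 and PDIL2-1 were each lost under 7 of 12 alternatives.

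Of 37 tested genes of enzymes that remove peroxide or serve those enzymes, 10 rose and 3 fell, with a median of 0.06. With library size alone 7 rose and 9 fell, and 1 fell without H2O2 replicate 2 or control 2. The largest change was that of APX2 (AT3G09640), a cytosolic ascorbate peroxidase that is silent without stress. It had 2.81, 3.48 and 2.55 CPM with H2O2, against 0, 0.0281 and 0 CPM in controls, which is 278 counts and 1, a ratio of 335 (60.1 to 13221). The major cytosolic enzyme APX1 (AT1G07890) had 712, 653 and 708 CPM with H2O2, against 523, 508 and 501 CPM (0.44 ± 0.05), so the groups did not overlap but differed little. Among the catalases, CAT1 (0.28 ± 0.05) and CAT2 (0.23 ± 0.07) rose slightly. CAT3 (AT1G20620) had 2203, 1810 and 2249 CPM with H2O2, against 2177, 2007 and 2223 CPM in controls, and was not called (-0.03 ± 0.09).

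Among enzymes that regenerate ascorbate, the cytosolic dehydroascorbate reductase DHAR2 (AT1G75270) rose most, with 93.3, 103 and 95.4 CPM with H2O2, against 30.6, 32.5 and 27.6 CPM in controls (1.69 ± 0.06). Its relative DHAR1 fell by 0.22 and the monodehydroascorbate reductase MDAR4 of peroxisomes by 0.25. The glutathione peroxidase-like GPX6 (0.98 ± 0.05) and GPX4 (0.89 ± 0.33) rose, the call of GPX4 being lost under 9 of 12 alternatives. The glutathione reductases GR1 (-0.14 ± 0.06) and GR2 (-0.05 ± 0.04), the thylakoid peroxidase TAPX (0.06 ± 0.09) and peroxiredoxin PRXQ (0.06 ± 0.05) were not called. Of 7 superoxide dismutases the copper and zinc enzyme CSD1 rose (0.66 ± 0.07), its plastid counterpart CSD2 fell by 0.38 and the iron enzyme FSD3 by 0.17. With library size alone, 1 of the 7 rose and 4 fell. Among 10 thioredoxins, their reductases and glutaredoxins, GRX480 alone rose and NTRB alone fell. Without control 3, 2 of the 10 fell, and without control 2, 2 rose. The glutaredoxin GRX480, which binds TGA factors, had 13.3, 10.0 and 13.0 CPM with H2O2, against 0.304, 0.393 and 0.0716 CPM in controls (5.59 ± 0.28).

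**Figure D2:**
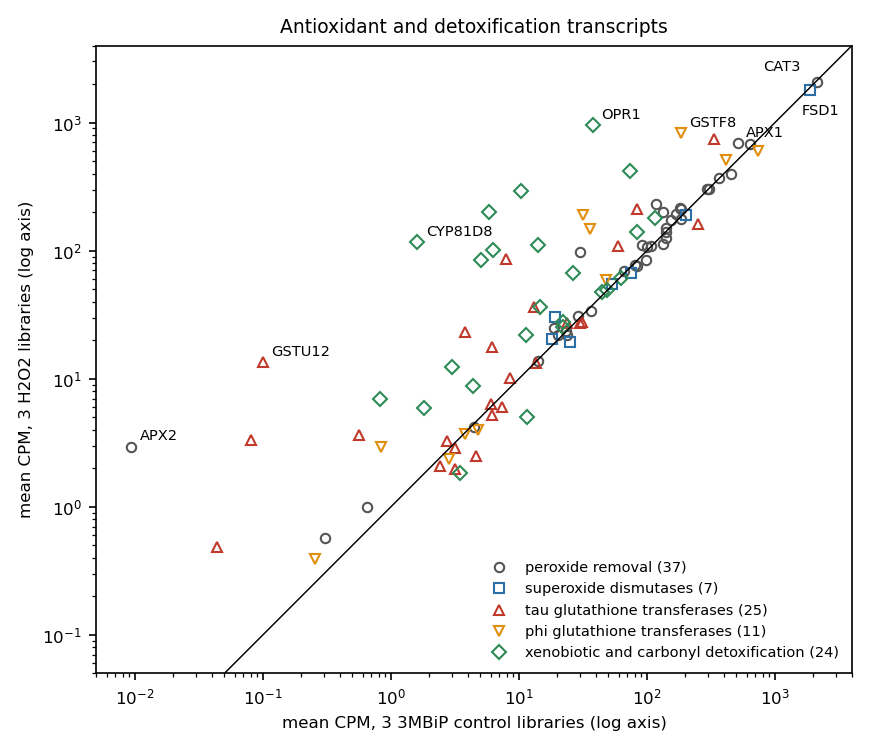
Mean CPM of antioxidant and detoxification transcripts in the 3 H2O2 libraries (vertical) against the 3 control libraries (horizontal), both axes logarithmic, with the line of equality. Most peroxide removal enzymes and superoxide dismutases lie near the line, APX2 (2.94 against 0.00936 CPM) and DHAR2 above it, while OPR1 (954 against 38 CPM), CYP81D8 and GSTU12 lie far above it.

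Enzymes that act on foreign compounds and reactive carbonyls rose more widely. Of 24 tested, 18 rose and 1 fell, with a median of 1.33, and together the list took 0.292 ± 0.00313% of assigned counts with H2O2 and 0.0664 ± 0.00121% in controls (SD, n = 3 each, exact permutation p = 0.1). OPR1 (AT1G76680), an oxophytodienoate reductase that acts on oxidised lipids, had 956, 954 and 952 CPM with H2O2, against 35.1, 36.9 and 42.0 CPM in controls (4.65 ± 0.08). The libraries of each group lay close together and the groups far apart. The cytochrome P450 CYP81D8 (AT4G37370) had 127, 117 and 106 CPM with H2O2, against 1.66, 1.38 and 1.79 CPM (6.17 ± 0.12), and CYP81D11 (AT3G28740) had 222, 166 and 216 CPM, against 4.84, 6.26 and 6.44 CPM (5.10 ± 0.15). The glucosyltransferases UGT73B5 (4.81 ± 0.09), UGT73B4 (4.09 ± 0.14), UGT73C5 (4.00 ± 0.13), UGT73C1 (3.1 ± 0.24) and UGT73B3 (2.97 ± 0.08) rose, as did AER (2.50 ± 0.06), an alkenal reductase. UGT74F1, which glucosylates salicylic acid, fell by 0.92.

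Glutathione transferases join glutathione to electrophiles. Of 25 tau class genes tested, 12 rose and 3 fell, with a median of 0.24, and of 11 phi class genes 5 rose and 1 fell, with a median of 0.30. With library size alone, 11 tau class genes rose and 6 fell. GSTU12 (AT1G69920) had 14.9, 12.9 and 12.4 CPM with H2O2, against 0.0554, 0.197 and 0.0477 CPM in controls (7.06 ± 0.23, and 7.93 without control 2). GSTU24 (AT1G17170) had 90.9, 76.7 and 92.4 CPM with H2O2, against 6.56, 9.04 and 8.35 CPM (3.44 ± 0.15), and GSTF8 (AT2G47730), a common marker of oxidative stress, 852, 844 and 782 CPM against 191, 188 and 175 CPM (2.16 ± 0.06). Neighbours in tandem did not all go together. In the run on chromosome 1 that holds GSTU19 to GSTU23, GSTU19 (AT1G78380) rose by 1.16 ± 0.05, GSTU20 (AT1G78370) fell by 0.62, GSTU22 by 0.88 and GSTU23 by 0.69, and GSTU21 was too low to test. In another run on that chromosome GSTU24 rose, GSTU25 rose by 1.53 ± 0.13 and GSTU26 was not called (-0.13 ± 0.09). On chromosome 2 GSTU7 (2.58 ± 0.10), GSTU5 (1.34 ± 0.07), GSTU4 (2.69 ± 0.29), GSTU2 (3.34 ± 0.60, and 4.04 without control 2) and GSTU1 (1.47 ± 0.10) rose, and GSTU6 between them did not pass (-0.28 ± 0.14). Genes of such runs can be similar enough to divide reads between them, which leaves the values of single members uncertain.

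TGA factors bind TGACG. This motif, on either strand (TGACG or CGTCA), was found in the 250 bases before 13 of 27 detoxification genes (48.1%) and 11 of 28 tau class genes (39.3%), against 18.6% of protein-coding genes, 22.1% of genes that rose and 16.7% of genes that fell. It was in 3 of 13 phi class genes (23.1%), and lists not held to be TGA targets gave like shares, among them autophagy (42.9%) and the ZAT and AZF factors (45.5%). Of the factors themselves, TGA2 (0.02 ± 0.07), TGA5 (0.16 ± 0.08) and TGA6 (-0.19 ± 0.12) were not called, and their partner SCL14, a GRAS protein, rose by 0.39 ± 0.06. The promoters of a glucosyltransferase, a cytochrome P450 and a glutathione transferase with the motif are shown with it in capitals, 5′ to 3′ toward the gene: UGT73B5 from chr2:6758180-6758429 on the plus strand, CYP81D11 from chr3:10790554-10790803 on the minus strand, and GSTU24 from chr1:5869293-5869542 on the plus strand.
UGT73B5: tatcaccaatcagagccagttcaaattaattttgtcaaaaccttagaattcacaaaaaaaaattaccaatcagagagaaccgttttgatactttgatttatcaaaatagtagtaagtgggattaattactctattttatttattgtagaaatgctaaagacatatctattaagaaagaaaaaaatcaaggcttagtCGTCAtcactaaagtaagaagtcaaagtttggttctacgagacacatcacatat
CYP81D11: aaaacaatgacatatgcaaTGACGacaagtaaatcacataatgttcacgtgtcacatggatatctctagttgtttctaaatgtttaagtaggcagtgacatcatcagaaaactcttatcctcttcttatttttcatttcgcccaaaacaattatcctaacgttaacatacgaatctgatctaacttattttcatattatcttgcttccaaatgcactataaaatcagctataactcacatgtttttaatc
GSTU24: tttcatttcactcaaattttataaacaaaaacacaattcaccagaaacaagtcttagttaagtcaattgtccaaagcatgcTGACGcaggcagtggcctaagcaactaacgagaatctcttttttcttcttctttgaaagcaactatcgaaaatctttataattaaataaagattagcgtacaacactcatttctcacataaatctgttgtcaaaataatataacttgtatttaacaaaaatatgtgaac
The match began 54 bases before the gene start in UGT73B5, 231 before it in CYP81D11 and 169 before it in GSTU24. NAC factors of the same regulon rose: NAC102 (AT5G63790) had 439, 479 and 423 CPM with H2O2, against 34.2, 40.4 and 39.3 CPM in controls (3.56 ± 0.07), followed by ATAF1 (2.18 ± 0.10), NAC032 (1.81 ± 0.09) and NAC053 (1.47 ± 0.06), the last a regulator of proteasome genes.

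Glutathione needs cysteine, which plants make from reduced sulphate. Of 29 tested genes of sulphur assimilation, sulphur deficiency and glutathione synthesis, 17 rose and 4 fell, with a median of 0.48. The falls numbered 1 without control 1 and 2 without control 2 or H2O2 replicate 2. The adenosine phosphosulphate reductase APR3 (AT4G21990), of the step held to control the pathway, had 575, 588 and 537 CPM with H2O2, against 35.3, 32.4 and 32 CPM in controls (4.09 ± 0.15). APR1 (2.03 ± 0.12) and APR2 (1.64 ± 0.14) rose less. The serine acetyltransferase SERAT2;1 (AT1G55920) had 420, 421 and 383 CPM with H2O2, against 33.4, 36.4 and 34.9 CPM (3.55 ± 0.07). Genes named for their response to low sulphur rose as well: LSU1 (4.1 ± 0.22), LSU2 (3.71 ± 0.26), SDI1 (1.75 ± 0.27) and BGLU28 (5.13 ± 0.46, and 6.71 without control 3), a glucosidase, with the sulphate transporter SULTR1;2 (1.09 ± 0.09). The high-affinity root transporter SULTR1;1, another gene of sulphur deficiency, fell by 0.83, a call lost under 4 of 12 alternatives, and the ATP sulphurylases parted, APS3 rising by 2.18 ± 0.09 and APS2 falling by 0.68. The enzymes of glutathione synthesis itself rose by less, GSH1 by 0.31 ± 0.05 and GSH2 by 0.48 ± 0.04, while GGCT2;1, which breaks glutathione down, rose by 3.54 ± 0.29, and by 4.24 without control 2.

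**Figure D3:**
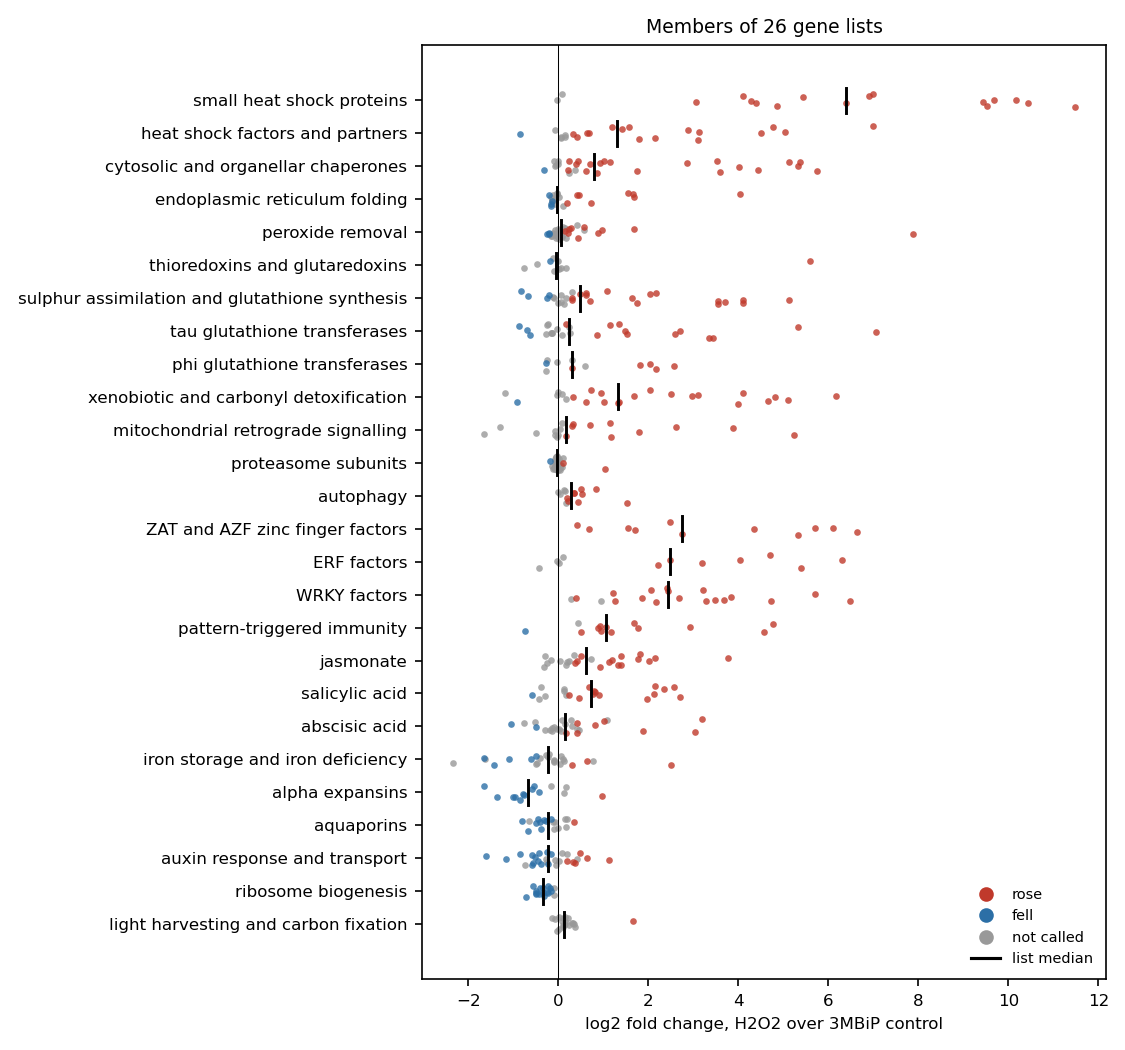
Log2 fold change, H2O2 over control, of each tested member of 26 gene lists; red points rose, blue points fell, grey points were not called, and black lines are list medians. Small heat shock proteins have a median of 6.40, peroxide removal enzymes 0.06 with APX2 alone beyond 2, and ribosome biogenesis genes -0.35.

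Mitochondria signal stress to the nucleus through NAC017 and its relatives, which bind the mitochondrial dysfunction motif. Of 19 tested genes of this pathway 10 rose and 0 fell, with a median of 0.17, but with library size alone 8 rose and 3 fell. The dicarboxylate carrier DIC2 (AT4G24570) had 83.0, 93.5 and 69.9 CPM with H2O2, against 2.49, 2.19 and 1.89 CPM in controls (5.23 ± 0.18). SRO5 (3.88 ± 0.27), the outer membrane ATPase OM66 (2.62 ± 0.10) and the alternative oxidase AOX1A (1.15 ± 0.08), the usual readout of the pathway, rose. AT2G21640, known as a marker of the oxidative stress response, had 8.38, 6.99 and 7.19 CPM with H2O2, against 8.58, 7.64 and 7.61 CPM, and was not called (-0.08 ± 0.11). That motif, on either strand, was in 6 of 22 promoters of this list (27.3%), against 1.75% of protein-coding genes. It was also in 4 of 17 small heat shock genes, 2 of 5 general reactive oxygen transcripts, 4 of 27 detoxification genes and 2 of 12 clock genes. Few proteasome genes were called: 2 of 39 rose and 1 fell (1 and 2 without control 3), with a median of -0.03. With library size alone, however, 22 fell. In this list CDC48B (1.04 ± 0.11), a segregase that extracts ubiquitylated proteins and no part of the proteasome itself, rose most. Autophagy genes moved in 1 direction, 9 of 14 rising and 0 falling, with a median of 0.28 and ATG8E (1.52 ± 0.11), a ubiquitin-like protein of the autophagosome, as the largest.

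Transcripts of reactive oxygen signalling changed in part. The NADPH oxidase RBOHD (AT5G47910), which makes superoxide at the plasma membrane, had 155, 123 and 118 CPM with H2O2, against 37.2, 36.8 and 24.7 CPM in controls (2.01 ± 0.16), whereas RBOHF was not called (0.16 ± 0.08) and RBOHC of root hairs fell by 0.32, a call lost under 5 of 12 alternatives. The kinase OXI1, required for full MAP kinase activation by H2O2, rose by 2.67 ± 0.16, and MPK3 by 2.2 ± 0.09. MPK6 (0.08 ± 0.07), MPK4 (0.09 ± 0.05) and the upstream kinase ANP1 (0.05 ± 0.10) were not called. AT5G49760, the leucine-rich repeat kinase known as a cell-surface H2O2 sensor, rose by 0.16 ± 0.06. Of 5 transcripts used as general marks of reactive oxygen, 3 rose, led by AT1G19020 (3.81 ± 0.15), while the trypsin inhibitor TI1 (0.17 ± 0.14) and AT2G21640 were not called.

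Transcription factors of the early stress response rose widely. All 11 ZAT and AZF zinc finger genes rose (median 2.76), as did 7 of 11 ERF genes (2.48) and 17 of 19 WRKY genes (2.44), and 0 members of these lists fell. With any 1 of the 6 libraries left out, 10 of the 11 zinc finger genes rose, and 18 WRKY genes rose without control 3. ZAT10 (AT1G27730), a repressor of abiotic stress responses, had 147, 152 and 121 CPM with H2O2, against 2.21, 1.97 and 1.98 CPM in controls (6.09 ± 0.16). ZAT12 (AT5G59820), whose loss makes plants sensitive to H2O2, had 73.0, 75.3 and 62.5 CPM with H2O2, against 2.93, 3.82 and 3.58 CPM (4.35 ± 0.12). WRKY40 (AT1G80840) had 129, 114 and 120 CPM with H2O2, against 2.16, 2.02 and 2.72 CPM (5.71 ± 0.12). In each of these the H2O2 libraries stood far above the controls. WRKY33 (4.73 ± 0.13), the activator of camalexin synthesis, ERF6 (4.70 ± 0.12), a factor that regulates reactive oxygen genes, WRKY75 (3.67 ± 0.13) and WRKY15 (2.41 ± 0.06) belonged to the same lists. The ERF genes ORA59 (0.10 ± 0.19), RAP2.6 (0.01 ± 0.13) and RAP2.4 (-0.02 ± 0.05) were not called.

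Many genes of the defence lists rose. Of 13 tested genes of pattern-triggered immunity 11 rose and 1 fell, with a median of 1.06, and the precursor of an immune peptide PROPEP3 (4.57 ± 0.26), the receptor-like kinases BIK1 (1.16 ± 0.06) and BAK1 (0.93 ± 0.05) and the chitin receptor CERK1 (0.88 ± 0.07) were among them. FRK1, a common marker of the flg22 response, was low in both groups, with 1.35, 1.59 and 0.839 CPM with H2O2, against 0.332, 0.534 and 0.310 CPM in controls, and rose by 1.68 ± 0.34. NHL10, used beside it, fell by 0.75. Of 20 salicylic acid genes 13 rose and 1 fell (11 and 1 without control 3): the receptors NPR3 (2.69 ± 0.07), NPR4 (1.96 ± 0.06) and NPR1 (0.81 ± 0.06) and the regulator CBP60G (2.56 ± 0.18) rose, the synthesis gene ICS1 was not called (0.18 ± 0.09), nor were PR2 (-0.42 ± 0.55) and PR5 (-0.38 ± 0.17), and PR1 was too low to test. In the indole branch, the P450 CYP81F2 (5.55 ± 0.17), the methyltransferase IGMT2 (4.41 ± 0.12), MYB51 (2.64 ± 0.11) and PAD3 of camalexin synthesis (1.94 ± 0.27) rose, 10 of 17 in all with 1 that fell. MYB34, the other regulator of indole glucosinolates, had 8.70, 7.32 and 8.21 CPM with H2O2, against 30.7, 30.2 and 22 CPM (-1.77 ± 0.14).

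The hormone lists gave different counts. For ethylene, 6 of 9 synthesis genes rose and 0 fell (5 and 1 without control 3). The synthases ACS7 (AT4G26200, with 79.7, 95.3 and 68.1 CPM with H2O2, against 3.18, 3.82 and 1.22 CPM in controls, 4.92 ± 0.30) and ACS6 (4.03 ± 0.20) rose most. For jasmonate, 14 of 24 rose and 0 fell, with a median of 0.61: the lipoxygenases LOX4 (3.78 ± 0.20) and LOX3 (1.82 ± 0.11) and the repressor JAZ1 (2.02 ± 0.13) rose, while LOX2 (-0.25 ± 0.17) and the output gene VSP2 (-0.29 ± 0.26) were not called. For abscisic acid, 8 of 27 rose and 2 fell, with a median of 0.14, and 4 fell without control 1. With library size alone, 7 of the 27 rose and 6 fell. NAC055 (3.2 ± 0.21), the catabolic P450 CYP707A3 (3.04 ± 0.15) and the receptor PYL5 (1.01 ± 0.07) rose, the synthesis gene NCED3 was not called (-0.77 ± 0.30), and the classical target RD29A, with 29.9, 25.9 and 18.17 CPM with H2O2 against 32.2, 62.7 and 57.4 CPM, fell by 1.05.

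Most expansin genes fell. Of 14 alpha expansins, which loosen cell walls, 10 fell and 1 rose, with a median of -0.68. EXPA15 (AT2G03090) had 12.9, 9.06 and 11.4 CPM with H2O2, against 41.1, 35.7 and 27.4 CPM in controls (-1.64 ± 0.15), and EXPA10, EXPA6 and EXPA5 fell by 0.78, 0.60 and 1.02. Every H2O2 library of EXPA15 lay below every control. Of 28 auxin genes 13 fell and 6 rose, among them the efflux carrier PIN3, which fell by 0.59, and SAUR20, which fell by 1.62. The cytokinin synthesis gene IPT3 fell by 1.82, and 5 of 9 type-A response regulators, which report cytokinin, fell while ARR7 rose (0.79 ± 0.16). Without H2O2 replicate 3 the falls numbered 3, and without any other of the 6 libraries 4. Of 18 aquaporins 9 fell and 1 rose, and without control 3 the numbers were 7 and 3.

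Ribosome biogenesis genes fell in small steps. Of 17, 15 fell and 0 rose, with a median of -0.35, and 11 fell without control 1 or control 2. The nucleolar methyltransferase FIB2 (AT4G25630) had 86.6, 89.8 and 97.9 CPM with H2O2, against 164, 152 and 134 CPM in controls (-0.71 ± 0.09). The pseudouridine synthase CBF5 had 177, 180 and 187 CPM with H2O2, against 273, 251 and 239 CPM (-0.49 ± 0.06), again without overlap. The nucleolar proteins SWA1 and RRP5 fell by 0.56 and 0.49, and FIB1, the near copy of FIB2, was not called (-0.10 ± 0.06). Cell division genes moved little: 2 of 14 mitotic genes fell, CYCA1;1 by 0.59 and CYCB1;1 by 0.28, and 4 fell without H2O2 replicate 1. Of 13 DNA damage genes BRCA1 alone rose (0.18 ± 0.06), and TSO2, a ribonucleotide reductase subunit induced by DNA damage, fell by 0.52. In that list 2 genes fell in all, and without control 3, 0 rose and 1 fell.

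Few photosynthesis transcripts were called. Of 20 genes of light harvesting and carbon fixation, LHCB2.3 alone was called (1.65 ± 0.34), and the list took 3.05 ± 0.162% of assigned counts with H2O2 and 3.08 ± 0.173% in controls (SD, n = 3 each, exact permutation p = 0.9). LHCB2.3 had 38.8, 32.9 and 43.2 CPM with H2O2, against 7.14, 11.9 and 17.2 CPM in controls, which differed among themselves. Clock genes rose in 7 of 12 cases, PRR7 by 0.92 ± 0.07 and PRR5 by 0.85 ± 0.06. ELF4 alone fell, and 0 fell without control 3. The controls' unstated harvest time cannot be told apart from H2O2, in clock genes or in any other gene of this report. Iron genes gave 3 that rose and 5 that fell of 24, and 8 fell without control 1. The vacuolar iron transporter-like VTL1 rose by 2.51 ± 0.20, nicotianamine synthase NAS4 fell by 1.43, and the ferritin FER1, known to respond to H2O2, was not called (0.14 ± 0.06).

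Genes of carbon starvation, a list drawn up after the values were seen, rose in 22 of 22 cases with a median of 1.78, and control 3 lay between the groups. It was the highest control in 22 of 22 genes, at 1.27 to 7.75 times the mean of controls 1 and 2, and below every H2O2 library in 21 of 22. The asparagine synthetase ASN1 (AT3G47340), induced by darkness, had 494, 531 and 544 CPM with H2O2, against 26.6, 23.59 and 137 CPM in controls. Its change was 3.06 ± 0.65, and 4.39 without control 3. SEN1 had 438, 465 and 491 CPM with H2O2, against 29.7, 29.6 and 102 CPM (3.1 ± 0.47, and 3.98 without control 3), and the raffinose synthase-like DIN10 had 2606, 2779 and 2982 CPM, against 762, 813 and 1770 CPM (1.32 ± 0.29, and 1.84 without it). The transcription factor BZIP1, which acts under low energy, rose by 2.24 ± 0.14. All 22 rose without control 3 (median 2.49), 17 without control 1 or control 2 and 14 when the 6 WT libraries were fitted alone. The list took 1.07, 1.14 and 1.22% of assigned counts with H2O2, against 0.281, 0.288 and 0.673% in controls. The part of control 3 in these genes was not tested further. Many of the 22 genes rose with wounding, flg22 and UVB as well, as given below.

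**Figure D4:**
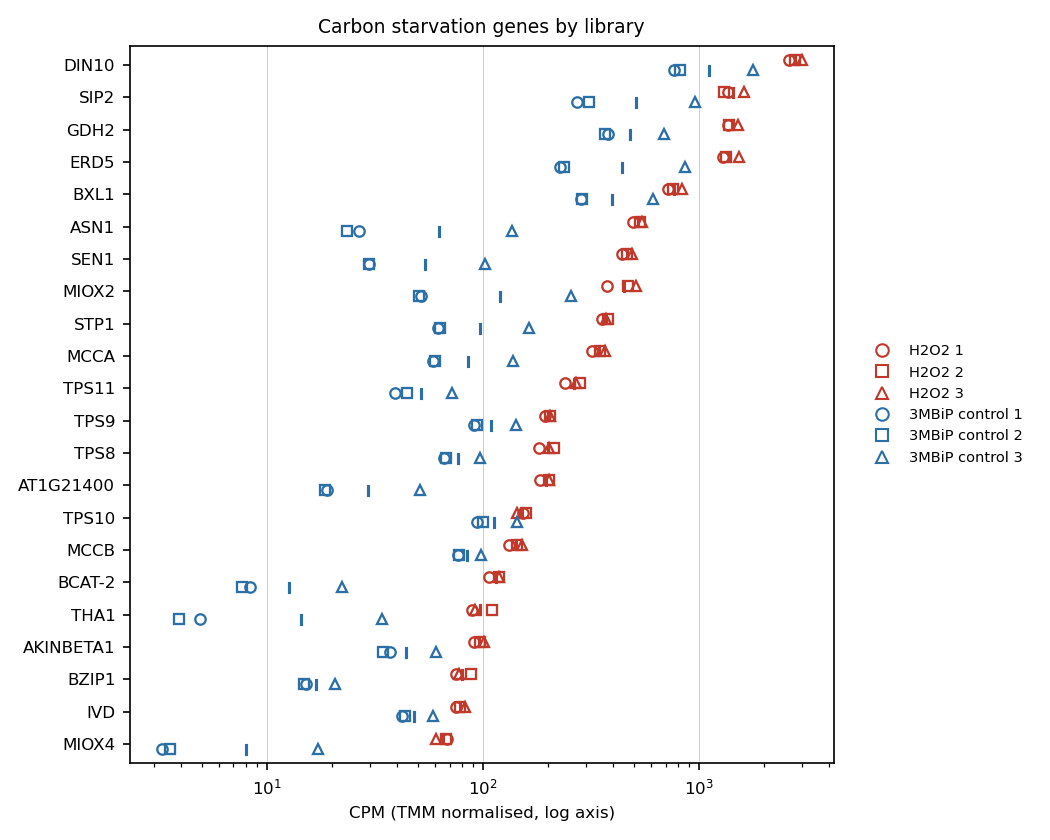
Level of 22 carbon starvation genes in every library, in CPM on a log axis; symbols are libraries and short vertical lines are group means of H2O2 (red) and 3MBiP controls (blue). Control 3 (blue triangles) stands right of controls 1 and 2 in every gene, and left of the H2O2 libraries in 21 of 22.

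Among the genes that fell most were those of methionine-derived (aliphatic) glucosinolates and of phosphate starvation, again lists drawn up afterwards. All 13 tested glucosinolate genes fell, with a median of -1.43. The regulator MYB28 (AT5G61420) had 22.7, 15.0 and 18.0 CPM with H2O2, against 53.1, 56.6 and 39.8 CPM in controls (-1.43 ± 0.19). The P450 CYP79F1, of the first step in the core pathway, had 23.55, 11.5 and 17.0 CPM with H2O2, against 55.4, 58.2 and 50.1 CPM (-1.66 ± 0.23), and AOP2, a side-chain enzyme, fell by 2.45. Of 12 phosphate starvation genes 10 fell, with a median of -1.03. The acid phosphatase PAP17 (AT3G17790) had 14.4, 12.5 and 18.7 CPM with H2O2, against 81.6, 74.8 and 48.6 CPM (-2.17 ± 0.23). Control 3 was the lowest control in PAP17, and still above every H2O2 library.

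The H2O2 response was set against those of WT seedlings to UVB, wounding by forceps and 2 nM flg22, a peptide of bacterial flagellin, each for 1 h after the same 3MBiP pretreatment. UVB and its controls came from another set of the series, and wounding and flg22 from a further one, in which they share their controls. The difference of fold changes was tested in a joint fit of 21 libraries over 21572 genes, and a difference of sets cannot be told apart from one of stimuli. In all, 18.9% of genes were higher with H2O2 than with UVB relative to their own controls and 15.2% lower, 15.5% and 16.3% against wounding, and 17.5% and 22.3% against flg22. Against their own controls in this fit, 19.6% of genes rose and 20.3% fell with H2O2, 21.9% and 22.1% with UVB, 25.2% and 23.1% with wounding, and 27.9% and 27.7% with flg22.

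Small heat shock genes and chaperones were higher with H2O2 than with the other stimuli in most cases. Of 17 small heat shock genes 15 were higher with H2O2 than with UVB, 14 than with wounding and 14 than with flg22, and 0 were lower. Their median log2 fold changes were 6.38 with H2O2, 0.04 with UVB, 0.76 with wounding and -0.62 with flg22. HSP17.6II changed by 10.14 ± 0.20 with H2O2 in this fit, -0.64 ± 0.47 with UVB, 4.45 ± 0.32 with wounding and -1.06 ± 0.77 with flg22. It thus rose with wounding too, as did 9 of the 17 in all, and by 5.69 ± 0.80 less than with H2O2 (4.86 without replicate 3 of the wounding controls). Of 24 heat shock factors and partners 12, 12 and 13 were higher with H2O2 than with UVB, wounding and flg22, and 4, 3 and 5 were lower. For HSFA2 the changes were 6.98 ± 0.45 with H2O2, -0.54 ± 0.48 with UVB, -1.12 ± 0.57 with wounding and -1.07 ± 0.56 with flg22, and each difference passed the test. Its controls began at different levels, a mean of 0.560 CPM for H2O2, 2.85 CPM for UVB and 3.40 CPM for wounding and flg22. Part of each HSFA2 difference is thus a gap between controls, whose cause was not tested. The treated means were 70.0, 2.05, 1.61 and 1.66 CPM with H2O2, UVB, wounding and flg22. Of 28 chaperones 18, 21 and 19 were higher with H2O2 than with UVB, wounding and flg22. HSP101 changed by 5.32 ± 0.16 with H2O2, against -0.52 ± 0.16 with UVB, 0.08 ± 0.16 with wounding and -0.97 ± 0.17 with flg22.

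Many sulphur genes were higher with H2O2 than with UVB. Of 30 tested in the joint fit, 17 rose and 3 fell with H2O2, 4 rose and 16 fell with UVB, and 20 were higher with H2O2 and 1 lower. LSU1 changed by 4.09 ± 0.27 with H2O2 and -2.85 ± 0.50 with UVB, and LSU2 by 3.69 ± 0.16 and -2.70 ± 0.16. The control levels of the sets differed: LSU2 had a mean of 12.0 CPM in the UVB controls and 1.81 CPM in the H2O2 controls. With UVB it stood at 1.84 CPM, close to the H2O2 controls, and with H2O2 at 23.2 CPM. LSU1 was low in the UVB set, at 0.783 CPM in controls and 0.0999 CPM with UVB. SULTR1;2 changed by 1.07 ± 0.20 with H2O2, -2.26 ± 0.21 with UVB and 2.16 ± 0.21 with flg22. APR3 was higher with H2O2 than with each of the others, by 4.76 ± 0.17 against UVB, 3.55 ± 0.17 against wounding and 2.89 ± 0.17 against flg22. Of 26 detoxification genes 18 rose with H2O2, 18 with UVB, 15 with wounding and 14 with flg22, and 13 were higher with H2O2 than with UVB and 5 lower. CYP81D11 set the stimuli apart, with 5.09 ± 0.14 for H2O2, 0.93 ± 0.21 for UVB, 4.27 ± 0.16 for wounding and -1.32 ± 0.29 for flg22.

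Wounding exceeded H2O2 in jasmonate genes, and both wounding and flg22 did so in many immunity genes. Of 26 jasmonate genes 25 were lower with H2O2 than with wounding and 0 higher, JAZ1 by -2.81 ± 0.20. Of 13 immunity genes 11 were lower with H2O2 than with flg22 and 1 higher, and FRK1 changed by 1.67 ± 0.42 with H2O2 and 7.47 ± 0.22 with flg22. All 13 rose with wounding as with flg22 (medians 2.34 and 2.43), and 7 were lower with H2O2 than with wounding and 2 higher. Of 14 genes of reactive oxygen signalling 12 were lower with H2O2 than with flg22, among them RBOHD (1.99 ± 0.14 with H2O2 and 3.31 ± 0.14 with flg22) and OXI1 (2.66 ± 0.18 and 3.78 ± 0.21). Of 20 WRKY genes 2 were higher with H2O2 than with flg22 and 11 lower, and 11 were higher than with UVB and 2 lower. WRKY40 changed by 5.69 ± 0.18 with H2O2, and its difference was -0.22 ± 0.29 against wounding and -0.08 ± 0.29 against flg22, neither called. ZAT10 was higher with H2O2 than with all 3 (by 1.64 ± 0.26, 2.18 ± 0.28 and 2.15 ± 0.28 against UVB, wounding and flg22).

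The falls differed as well. Ribosome biogenesis genes were lower with H2O2 than with UVB in 16 of 17 cases, than with flg22 in 13 and than with wounding in 3 (1 without control 1 or wounding replicate 2), and 0 were higher. FIB2 changed by -0.73 ± 0.08 with H2O2, 0.20 ± 0.07 with UVB, -0.32 ± 0.08 with wounding and 0.03 ± 0.07 with flg22. Of 14 mitotic genes 11 were lower with H2O2 than with UVB (7 without UVB replicate 2), and 11 of the 14 rose with UVB. Aliphatic glucosinolate genes fell with H2O2, UVB and flg22 (13, 13 and 12 of 13) but 10 rose with wounding, and 12 were lower with H2O2 than with wounding. Of 20 light harvesting and carbon fixation genes 0 fell with H2O2, 12 fell with wounding and 13 with flg22, and 12 and 14 were higher with H2O2 than with wounding and flg22. Carbon and phosphate starvation genes moved with the other stimuli too. Of 22 carbon starvation genes 22 rose with H2O2, 12 with UVB, 20 with wounding and 16 with flg22. Their medians were 1.77, 0.88, 1.96 and 1.04. With H2O2, 8, 3 and 6 were higher than with UVB, wounding and flg22, and 0, 3 and 0 lower. Of 12 phosphate starvation genes 10 fell with H2O2, 11 with UVB, 6 with wounding and 8 with flg22.

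**Figure D5:**
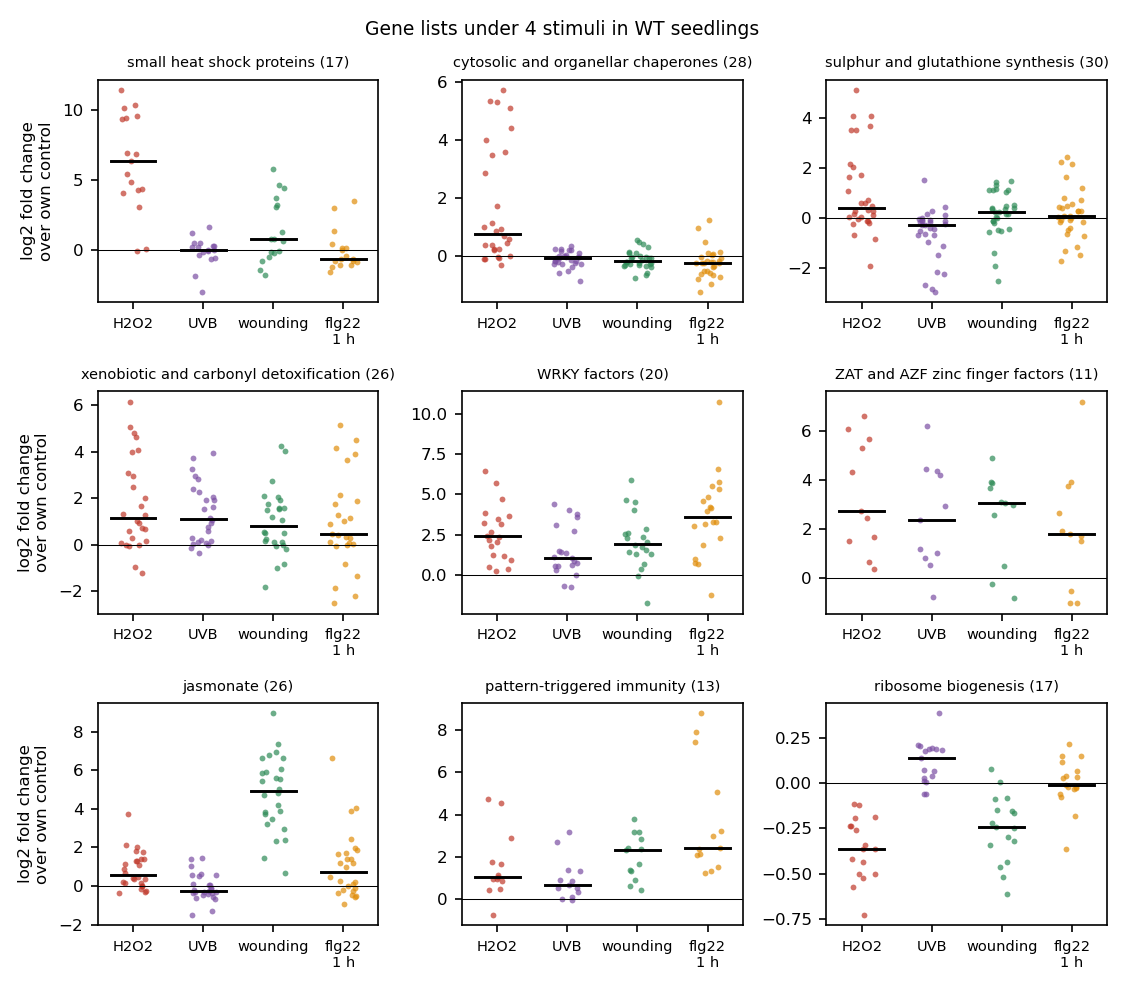
Log2 fold change over the own control of each member of 9 gene lists with H2O2, UVB, wounding and flg22 (1 h), from the joint fit; points are genes, black lines are medians, and the number tested follows each list's name. Small heat shock genes have a median of 6.38 with H2O2 and 0.04 with UVB, while jasmonate genes have 0.59 with H2O2 and 4.92 with wounding.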

How the data were processed

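RNA-seq counts per gene were analysed from WT seedlings, 3 libraries with H2O2 and 3MBiP and 3 with 3MBiP alone. The deposited files hold raw counts that the authors made with TopHat and HTSeq on TAIR10, per the submitters' processing notes (versions are not given in the sources used here). The libraries were made with an unstranded kit, so a gene and an overlapping or antisense gene cannot be told apart. Rows that name no gene were left out of library sizes; reads that were not uniquely aligned came to 7.45 to 10.8% and ambiguous ones to 2.92 to 3.16%. With edgeR 4.0.16 in R 4.3.3, counts were filtered by filterByExpr, TMM-normalised and tested by the quasi-likelihood method with Benjamini-Hochberg adjustment over all genes tested, in the 12 libraries of the set. These include the impk36 and impk4 libraries given H2O2. Responses to UVB, wounding and flg22 were set against H2O2 in 1 joint fit of 21 libraries over the 32005 loci that the sets share. Gene names, coordinates and promoters came from RefSeq TAIR10.1. The members and lists were chosen with earlier results of these data known. For each list up to 4 called members per direction were named by adjusted p, with members central to its subject, and up to 15 genes per direction by fold change; other genes named were chosen after their values were seen. Alternatives were DESeq2 1.42.0, other scalings, no filter, the WT libraries alone, a replicate block and leaving out each library. The procedure was tested on simulated data. A gene withheld for evaluation is not reported here.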

Additional observations from a re-analysis of the deposited data

How the results depend on the processing

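Against 8601 calls, separate fits gave 7170 to 8804 when 1 library was left out, 8210 with DESeq2 and 7793 with the 6 WT libraries alone. The differences gave 6224 to 7616 calls against UVB, 6063 to 6677 against wounding and 7805 to 8649 against flg22 when 1 library was left out. Scaling by library size alone moved the direction: 7121 genes fell with H2O2 (33.9% of calls were higher, against 52.7%), 5308 were lower than with UVB (35.9% higher, against 55.5%) and 5943 higher than with flg22 (64.0% higher, against 44.0%). The cause was not tested. With the 100 loci of highest count removed from lists and total alike, which takes out 10 light harvesting genes, 4 of carbon starvation and 1 chaperone, the gain in share of counts was 0.139 percentage points for small heat shock genes, 0.428 for chaperones, 0.265 for detoxification, 0.0673 and 0.0906 for tau and phi glutathione transferases and 0.357 for carbon starvation, against 0.118, 0.343, 0.226, 0.0575, 0.0773 and 0.727. The difference in light harvesting share was -0.0284, turned to 0.00953 under that setting, and ran between -0.121 and 0.0539 when 1 library was left out. A heat shock element with 1 mismatch was found in 7 small heat shock genes and 6 chaperones, and the 2-unit form alone in 4 and 2, against 2 and 0. A replicate block gave 8695 calls, and 7481, 6978 and 8679 for the differences. Same-numbered libraries did not deviate together more than others did (correlations 0.036, 0.002 and -0.044, against -0.068 to 0.054 between unlike numbers). Such values cannot tell whether same-numbered libraries shared a culture or a harvest, and the labels do not say. Over the 208 genes named for H2O2 and 12 alternatives, 2409 of 2495 values kept their direction and call, 65 lost the call, 21 gained it and 0 reversed. The lost calls include small changes (BIP1, PDIL2-1, CAT2, BRCA1, AT5G49760) and larger ones of wide spread (GPX4, SULTR1;1, ASN1).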

Other observations

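In absolute terms, the largest gain in mean CPM was that of PEN3, an ABC transporter of the plasma membrane. It stood at 2558 ± 128 CPM with H2O2 and 876 ± 72.3 CPM in controls (SD, n = 3 each). DIN10 gained nearly as much, at 2789 ± 189 CPM with H2O2 and 1115 ± 567 CPM in controls. Its high control 3, given above, lowers that gain, so the order of PEN3 and DIN10 is uncertain. The polyubiquitin gene UBQ10 stood at 2204 ± 60.2 CPM with H2O2 and 1306 ± 116 CPM in controls. The largest fall was that of PYK10, a root beta-glucosidase of the endoplasmic reticulum body, at 2516 ± 266 CPM with H2O2 and 3258 ± 141 CPM in controls. Genes of root triterpene clusters fell in 5 of 7 cases with a median of -0.80.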
